A study of Mus musculus with 6 samples.

Results

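Hand2-only promoter peaks are the regions where the Hand2 ChIP-seq of the mandibular prominence (MNP) recorded a peak close to the start of a gene and neither Gli3 list did. Members were chosen by peak calls: an entry of the Hand2 MNP list that shares no base with the Gli3 MNP list or with the Gli3 whole face list, and whose midpoint lies within 1 kb of the 5' end of a protein-coding gene. This rule gave 4179 of the 59583 Hand2 peaks. The Gli3 lists are much shorter, with 5427 peaks in the MNP and 5752 in the whole face. A further 50451 Hand2 peaks, beyond 1 kb of a gene start, also shared no base with them. Of the Hand2 peaks that did share a base, 2230 lay within 1 kb of a gene start and 2723 did not. The series compared 3 groups of CD1 mouse embryos, each with 2 replicates made from pooled embryonic tissue: *Gli3* 3XFlagbio whole face, *Gli3* 3XFlagbio MNP and *Hand2* 3XFlagbio MNP. Every tagged embryo thus carried a FLAG tag on the endogenous *Gli3* or *Hand2* gene, and the same anti-FLAG M2 antibody served for both TFs. The study's list of reagents names the *Hand2* allele 3xFlag, without the bio tag that the labels give. The labels and the study give E11.5 as the stage, whereas the series text gives an earlier day. The MNP is a mixture of mesenchyme, epithelium, nerve and vessels, and a peak in it does not say which cells were bound. Every entry of the Hand2 list names peaks of both replicates and carries no height, score or read count, so the number of sub-peaks is the only value per replicate and the depth behind a peak is unknown.

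Hand2 is a basic helix-loop-helix TF of the distal mandibular mesenchyme, where it acts downstream of endothelin signalling in jaw patterning. It pairs with E proteins and binds E-boxes, short palindrome-like motifs written CANNTG, of which CAGATG is the form most often linked to it. Promoters are of broadly opposed kinds: CpG-rich promoters, common at genes that many tissues use, are bound by Sp, ETS, NRF1 and CREB family factors, and CpG-poor promoters are more often found at genes of specialised cells. The question here is which promoters carried Hand2 without a recorded Gli3 peak, and whether their sequence held the E-box.

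Short stretches around the motif nearest to the peak midpoint show what these promoters looked like. All are from GRCm38 (mm10), printed 5' to 3' on the strand of the gene and outside annotated exons, with the motif in capitals on whichever strand it lies. *Cnot6l*, whose product belongs to a deadenylase complex, is shown because its peak held 3 copies of CAGATG (or its other strand, CATCTG) in the central 200 bp, as many as any member. It lies at chr5:96164220-96164324, upstream of the gene.
Cnot6l: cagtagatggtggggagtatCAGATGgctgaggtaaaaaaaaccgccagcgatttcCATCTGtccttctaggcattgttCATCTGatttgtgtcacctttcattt

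The other stretches were chosen after their values were seen, as examples among members with the motif near the midpoint. The first set are CpG-poor members with CAGATG: *Dkk2*, a secreted Wnt antagonist, at chr3:132084843-132084902 (plus strand), *Hdac11*, a histone deacetylase, at chr6:91157048-91157107 (plus strand), and the olfactory receptor gene *Olfr685* at chr7:105186053-105186112 (minus strand).
Dkk2: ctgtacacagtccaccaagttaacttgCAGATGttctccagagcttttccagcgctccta
Hdac11: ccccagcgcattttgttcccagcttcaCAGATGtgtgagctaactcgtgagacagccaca
Olfr685: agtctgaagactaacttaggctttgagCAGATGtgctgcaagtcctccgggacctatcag

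The second set are CpG-poor members with CAGCTG, the E-box also linked to Myod: *Foxf2*, a forkhead TF of the jaw mesenchyme, at chr13:31624920-31624979 (plus strand), *Tnnt2*, cardiac troponin T, at chr1:135836150-135836209 (plus strand), and the zinc finger genes *Zfp931* at chr2:178077669-178077728 (minus strand) and *Zfp970* at chr2:177465480-177465539 (plus strand). The last pair show how alike some members are: both peaks belong to one family of members that share a run of 50 identical bases.
Foxf2: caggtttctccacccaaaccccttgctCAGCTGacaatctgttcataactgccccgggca
Tnnt2: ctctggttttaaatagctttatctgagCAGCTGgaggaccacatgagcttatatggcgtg
Zfp931: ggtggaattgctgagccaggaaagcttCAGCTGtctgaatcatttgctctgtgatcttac
Zfp970: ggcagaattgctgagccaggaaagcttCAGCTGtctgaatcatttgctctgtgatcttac

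The third set are CpG-rich members, shown because they held other motifs near their midpoints: the cAMP response element TGACGTCA at *Foxd3*, a neural crest TF (chr4:99656039-99656100, plus strand), and at *Sgta*, a co-chaperone (chr10:81060267-81060328, minus strand), the ETS site CCGGAAG (or CTTCCGG) at *Zfp28* (chr7:6383186-6383246, plus strand) and at *Zfp787* (chr7:6156090-6156150, minus strand), and the E-box CACGTG at *Zfp943* (chr17:21962486-21962545, plus strand). The *Foxd3* stretch also holds CACGTG, left in lower case.
Foxd3: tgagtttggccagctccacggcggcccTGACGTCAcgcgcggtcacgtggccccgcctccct
Sgta: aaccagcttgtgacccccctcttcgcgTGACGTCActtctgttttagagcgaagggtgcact
Zfp28: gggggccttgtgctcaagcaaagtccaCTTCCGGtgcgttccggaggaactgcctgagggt
Zfp787: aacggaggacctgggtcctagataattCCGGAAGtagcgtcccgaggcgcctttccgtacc
Zfp943: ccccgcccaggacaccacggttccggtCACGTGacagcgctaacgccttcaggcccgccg

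The members were of 2 kinds by base composition, and most of what follows differs between them. CpG-rich here means a central 200 bp with a CpG observed/expected ratio of at least 0.6 and at least 50% GC, and 2572 members (61.5%) met it, leaving 1607 CpG-poor members. Hand2 promoter peaks that do share a base with a Gli3 peak (2230, called Gli3-shared) were CpG-rich more often, at 83.9%. The difference was 22.3 percentage points (95% Newcombe interval of members minus Gli3-shared, -24.4 to -20.2, Fisher's exact test, adjusted p = 1.13e-79). Among the 50451 Hand2-only peaks beyond 1 kb of a gene start, 2.44% were CpG-rich. Median GC of the central 200 bp was 62.5% in members, 68% in Gli3-shared promoter peaks and 46.5% in non-promoter peaks. In all tests of this kind peaks or genes were counted, not embryos, tests were two-sided and p-values were adjusted by Benjamini-Hochberg over 226 comparisons of shares. The intervals cover counting error only.

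CpG-rich members sat on the gene start and CpG-poor members were spread around it. The median distance from midpoint to the 5' end was 107 bp in CpG-rich and 297 bp in CpG-poor members, and 78.5% against 48.5% of the peaks covered the 5' end itself (Fisher's exact test, adjusted p = 4.06e-87). In the plot of positions, the 100 bp just before the start held 25.2% of CpG-rich and 12.9% of CpG-poor members. Members as a whole were balanced about the start, with 50.04% of midpoints upstream, while Gli3-shared promoter peaks leaned downstream, with 38.9% upstream (difference 11.1 points, 8.57 to 13.6, Fisher's exact test, adjusted p = 7.94e-17). Upstream midpoints made up 47.3% of CpG-rich and 54.4% of CpG-poor members (Fisher's exact test, adjusted p = 1.68e-05). A pair of genes pointing away from each other was found at 7.58% of CpG-rich and 3.73% of CpG-poor members (Fisher's exact test, adjusted p = 6.53e-07). By the annotation, 1745 midpoints lay between genes, 1185 in a UTR, 727 in an intron, 265 in a coding exon and 257 in another exon.

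**Figure D1:**
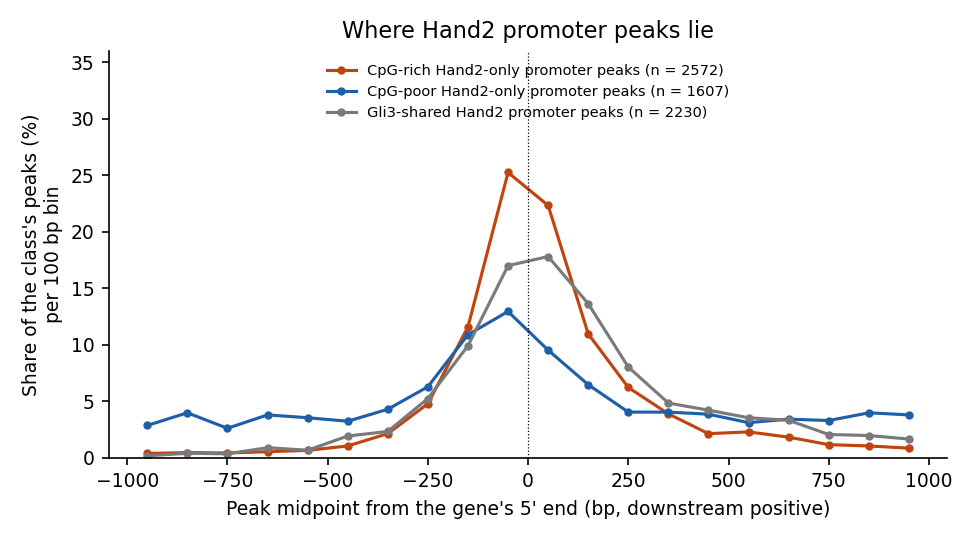
Share of peaks (%) per 100 bp bin against the distance of the peak midpoint from the gene's 5' end (bp, downstream positive) for CpG-rich and CpG-poor Hand2-only promoter peaks and Gli3-shared Hand2 promoter peaks. The CpG-rich curve peaks at 25.2% just before the start. The CpG-poor curve also has its top there, at 12.9%, falls on both sides and levels off toward both 1 kb limits.

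Peak widths and sub-peaks belong to the list that chose the members and are given as a description. Members were 199 to 3118 bp wide with a median of 467 bp, between non-promoter peaks (437 bp) and Gli3-shared promoter peaks (601 bp). A single sub-peak in each replicate made up 82.7% of members, 66.1% of Gli3-shared promoter peaks and 88.8% of non-promoter peaks. Replicate 1 had more sub-peaks than replicate 2 at 371 members (8.88%), and replicate 2 had more at 200 (4.79%). The widest members lay at *Arhgap28* (3118 bp), *Stom* (1862 bp), *Csrp2* (1838 bp), *Tgif1*, a repressor in Tgf-beta signalling (1817 bp), and *Lix1* (1691 bp). None of those at *Arhgap28*, *Stom*, *Csrp2* and *Tgif1* held CAGATG in the central 200 bp, and that at *Lix1* held 1 copy.

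The limits of the rule cut through continuous distances. Just inside 1 kb were peaks at *Gm3667* (999 bp), *Zfp131* (998 bp) and *Gm3558* (995 bp), and just outside were peaks at *Rab40c* and *Shisa4* (1001 bp each) and *Hist1h2bk* (1002 bp). The Gli3 limit was as close in places: the members at *E2f8*, *Gtpbp1* and *Usp2* missed a Gli3 peak by 1, 3 and 6 bp. A Gli3 peak lay within 500 bp of 221 members (5.29%) and within 100 kb of 2833 (67.8%). Absence from the Gli3 lists says that no peak was called there and not that Gli3 was absent.

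The Hand-type E-box CAGATG was present in the central 200 bp of 534 members (12.8%), counted as exact letters on both strands. It was found in 30.5% of the Hand2-only non-promoter peaks, 17.8 points more (95% Newcombe interval of members minus non-promoter, -18.8 to -16.6, Fisher's exact test, adjusted p = 1.67e-148). Against the Gli3-shared promoter peaks (7.67%) it was more frequent in members by 5.11 points (3.58 to 6.58, Fisher's exact test, adjusted p = 6.79e-10). Members with the motif mostly held it once: 488 had 1 copy, 44 had 2 and 2 had 3. Those with 3 were *Cnot6l*, printed above, and *B3galt4*, a galactosyltransferase gene, and among those with 2 were *Capn6*, *Trim55*, a muscle ring finger gene, and *Ndufa8*. A match is a description of the letters and no evidence that Hand2 touched them.

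The 2 kinds of member differed in CAGATG. It was found in 19.9% of CpG-poor and 8.32% of CpG-rich members (difference of rich minus poor -11.6 points, -13.9 to -9.40, Fisher's exact test, adjusted p = 4.92e-26). Within the CpG-poor class, members were below non-promoter peaks (30.9%, adjusted p = 1.11e-21 by Fisher's exact test) and above Gli3-shared promoter peaks (14.7%, adjusted p = 0.0383 by Fisher's exact test). Within the CpG-rich class the order was the same, with 16.9% of non-promoter and 6.31% of Gli3-shared promoter peaks (adjusted p = 8.37e-14 and 0.0208, Fisher's exact test). When GC content was held in 5 strata, the odds ratio of members to Gli3-shared peaks was 1.35, against 1.76 without strata.

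Other E-boxes differed from the Hand type. In CpG-poor peaks CAGCTG was found in 20.4% of members and 20.1% of non-promoter peaks, with a difference of 0.291 points and an interval of -1.64 to 2.36 (Fisher's exact test, adjusted p = 0.808). CACGTG, the E-box of Usf and Myc family factors, ran the other way, in 8.51% of CpG-rich and 3.796% of CpG-poor members (Fisher's exact test, adjusted p = 3.26e-09). Over all members CACGTG stood at 6.70% against 3.15% of non-promoter peaks (Fisher's exact test, adjusted p = 9.09e-27). CACGTG holds a CpG, the pair of letters that defines the CpG-rich class, so neither of these comparisons separates motif from class. Any CANNTG was found in 66.9% of CpG-poor members, 47.2% of CpG-rich members and 77.4% of non-promoter peaks. CAGATG and TAATTA, the homeobox core, within 20 bp of each other were found in 4 members (0.0957%) and 250 non-promoter peaks (0.496%).

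Motifs of general promoter factors were more frequent in members than in Hand2-only peaks beyond 1 kb of a gene start. The GC box GGGCGG, bound by Sp and Klf factors, was in 47.3% of members and 4.95% of non-promoter peaks (difference 42.3 points, 40.8 to 43.8), and the ETS site CCGGAAG was in 10.6% and 1.05% (Fisher's exact test, adjusted p = 4.32e-229). The NRF1 core GCATGCGC was in 3.06% and 0.325%, the cAMP response element in 1.96% and 0.272%, the YY1 site AAGATGGC in 2.39% and 0.793%, and the Zbtb33 element TCTCGCGA in 0.909% and 0.0178%. The adjusted p of each by Fisher's exact test was 3.85e-63, 1.39e-34, 2.94e-18 and 1.92e-33. Against Gli3-shared promoter peaks, the ETS site (11.03%), the NRF1 core (2.74%) and the cAMP response element (2.69%) did not pass the test, while 3 motifs were lower in members than in Gli3-shared peaks. These were the GC box (59.5% of Gli3-shared peaks, adjusted p = 4.15e-20 by Fisher's exact test), the YY1 site (3.36%, adjusted p = 0.0373) and the Zbtb33 element (1.79%, adjusted p = 0.00486). The YY1 site was in 3.34% of CpG-rich and 0.871% of CpG-poor members, and Gli3-shared peaks were CpG-rich more often than members. The comparisons above are over all peaks of a kind, and comparisons within one class are not given here. The GC box, the ETS site, the NRF1 core, the cAMP response element and the Zbtb33 element each hold a CpG. That pair of letters defines the CpG-rich class, so shares over all peaks of a kind do not separate motif from class. CCAAT, the box of NF-Y, holds no CpG and was in 25.8% of members, 21.8% of non-promoter and 21.3% of Gli3-shared peaks (adjusted p = 1.06e-08 and 1.47e-04, Fisher's exact test).

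The canonical Gli-binding motif GACCACCC was rare in members, at 15 of 4179 (0.359%), against 0.341% of non-promoter peaks, a difference of 0.0180 points with an interval of -0.134 to 0.255. Gli3-shared promoter peaks held it in 1.12%, a difference of -0.762 points for members minus Gli3-shared (-1.31 to -0.333, Fisher's exact test, adjusted p = 7.38e-04). These classes were split by Gli3 peak calls. In the central 100 bp of Gli3-shared peaks GACCACCC stood at 0.538%. It stood at 0.583% and 0.717% in 100 bp windows centred 400 bp upstream and downstream. The divergent form GACCTCCC was in 0.718% of members and 1.30% of Gli3-shared peaks (Fisher's exact test, adjusted p = 0.0406).

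**Figure D2:**
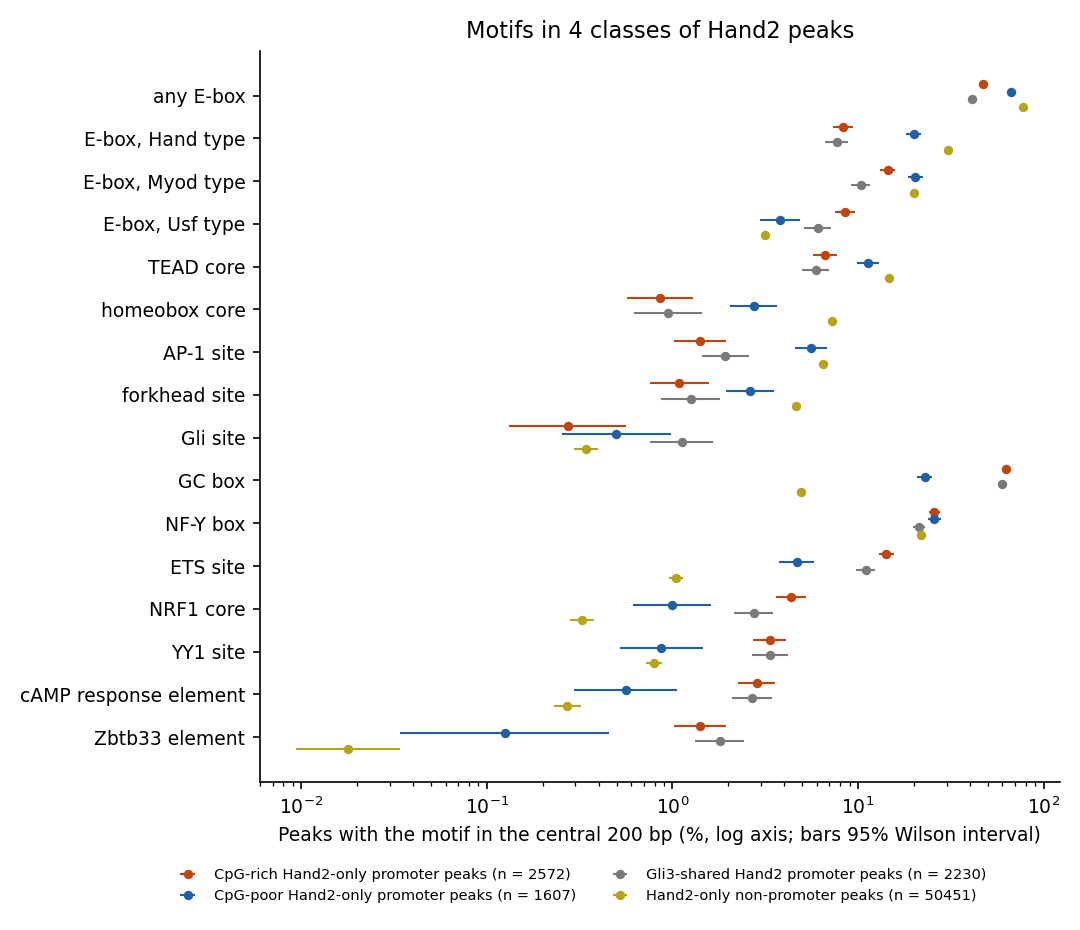
Share of peaks (%, log axis) with each of 16 motifs in the central 200 bp, for CpG-rich (n = 2572) and CpG-poor (n = 1607) Hand2-only promoter peaks, Gli3-shared Hand2 promoter peaks (n = 2230) and Hand2-only non-promoter peaks (n = 50451), with 95% Wilson intervals as bars. For the Hand-type E-box CAGATG the CpG-poor members (19.9%) lie between the CpG-rich members (8.32%) and the non-promoter peaks (30.5%), and for the GC box the CpG-rich members reach 62.5%.

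Each peak was next compared with its own surroundings, which share the gene but not always the promoter. Many midpoints lie close to the gene start, so centring at the midpoint cannot be told apart from placement at the start. The central 100 bp was set against 100 bp windows centred 400 bp upstream and downstream in the direction of the gene, with the exact McNemar test adjusted over 192 comparisons. CAGATG was centred in CpG-poor members: 10.9% held it in the centre, 7.53% upstream and 5.29% downstream (exact McNemar test, adjusted p = 0.00281 and 2.91e-08). In CpG-rich members it was not, at 4.39% in the centre, 5.40% upstream and 4.39% downstream (exact McNemar test, adjusted p = 0.177 and 1). The classes differed in this respect by Fisher's exact test on the discordant peaks (adjusted p = 0.00168 and 2.00e-04 over 48 comparisons). The classes were defined by the composition of the central 200 bp, which holds the tested centre. The difference between them cannot be told apart from that split. Some other E-boxes without a CpG, CAAATG among them, also differed by this Fisher's exact test (adjusted p = 1.49e-06 and 0.00288), while CAATTG did not pass. In CpG-rich members CAAATG was in 1.36% of centres, 4.82% upstream and 2.76% downstream. Over all members the centre held CAGATG in 6.89%, against 6.22% upstream and 4.74% downstream, and only the downstream side passed the test (exact McNemar test, adjusted p = 0.340 and 9.93e-05). In Gli3-shared promoter peaks CAGATG was in 4.48% of centres, 4.04% upstream and 3.86% downstream, which did not pass (exact McNemar test, adjusted p = 0.628 and 0.447). In the plot of CAGATG by distance, CpG-poor members held 65.96 occurrences per 1000 peaks in the 50 bp just before the midpoint and 33.6 in the bin that starts 500 bp before it. Hand2-only non-promoter peaks held 105 and 40.2 in the same bins, with no test.

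CAGCTG was centred in both classes. In CpG-poor members it was in 12.1% of centres, 4.73% of upstream and 6.04% of downstream windows, a ratio of centre to mean flank of 2.25 (exact McNemar test, adjusted p = 3.05e-13 and 1.97e-08). In CpG-rich members it was in 7.31%, 3.69% and 5.60%, a ratio of 1.57 (exact McNemar test, adjusted p = 1.10e-07 and 0.0332). The ratio for CAGATG in CpG-poor members was smaller, at 1.70, and that difference between E-boxes was not tested.

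CpG-rich members were centred on other motifs. CACGTG was in 4.43% of their centres, 1.75% of upstream and 1.87% of downstream windows (exact McNemar test, adjusted p = 2.36e-07 and 5.30e-07), and in 1.37%, 1.99% and 1.62% in CpG-poor members, which did not pass. CCGGAAG was in 7.504%, 1.75% and 2.26% of CpG-rich members (exact McNemar test, adjusted p = 1.43e-22 and 1.43e-17). TGACGTCA was in 47 centres (1.83%) against 0.0778% and 0.117%, a ratio of 18.8 (exact McNemar test, adjusted p = 4.40e-11 and 3.39e-10). The centres of CpG-rich members were also richer in GC than their flanks, with a mean of 67.1% against 51.3% upstream and 60.6% downstream. In CpG-poor members these means were 53.7%, 49.2% and 53.4%. The part of base composition in the centring of any motif, with or without a CpG, was not tested. CCAAT, with no CpG, was in 15.7% of CpG-rich centres, 12.01% upstream and 6.65% downstream (exact McNemar test, adjusted p = 4.28e-04 and 2.58e-23). Such centring was not particular to members. In Gli3-shared promoter peaks CCGGAAG stood at 5.96%, 1.70% and 1.84%, and TGACGTCA at 1.39%, 0.179% and 0.0897%. CCAAT stood at 12.3%, 9.82% and 7.53% there, and each of these motifs passed the exact McNemar test on both sides. CACGTG, at 3.05%, 2.11% and 1.66%, passed on the downstream side only.

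Every 6-letter word was also counted, without a choice of motif. In CpG-rich members the words with the highest ratio of centre to flanks, among those in at least 20 centres, were led by ACGTCA, part of the cAMP response element (140 peaks against a flank mean of 34). Also among the first 5 were TGCGCA (185 peaks against 52) and a part of the ETS site, CGGAAG (383 against 113.5). CAGATG stood at place 828 of 1886. In CpG-poor members the top word CGTCAA rested on 25 peaks, the E-box CAGCTG was in place 3 with 195 peaks against 86.5, and the Hand type in place 32 of 1819. Words of the NF-Y box were near the top in both classes: ATTGGC stood at place 6 in CpG-rich members (199 peaks against 59.5) and at place 7 in CpG-poor members (94 against 47.5). These ratios are a description, with no test.

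**Figure D3:**
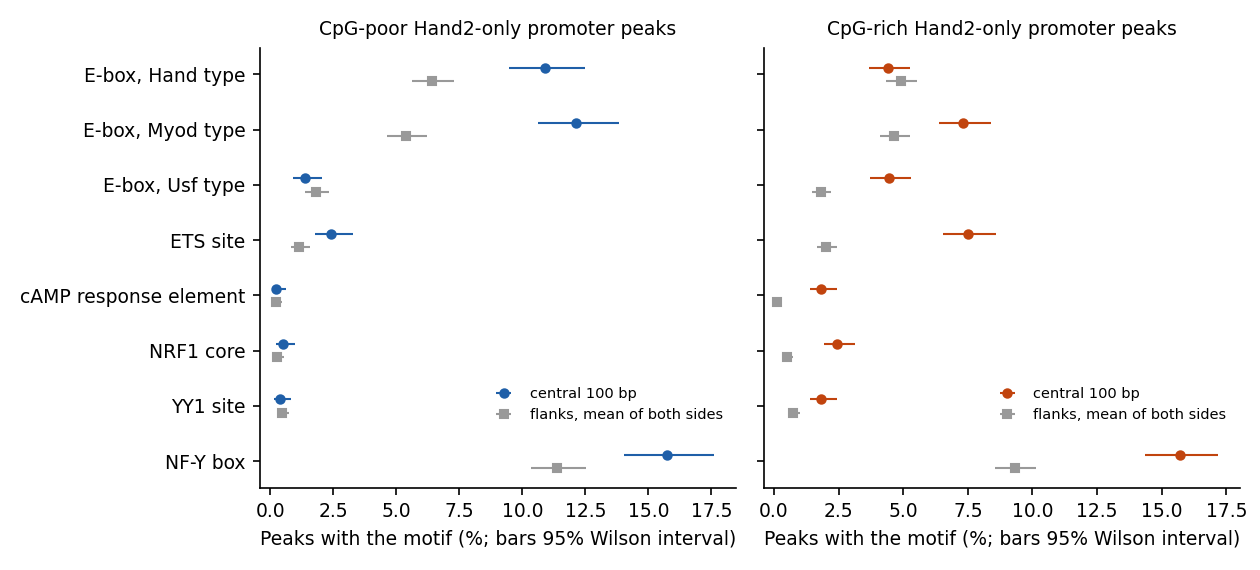
Share of peaks (%) with each motif in the central 100 bp and in the flanks (mean of windows centred 400 bp to either side), for CpG-poor (left) and CpG-rich (right) Hand2-only promoter peaks, with 95% Wilson intervals as bars. The Hand-type E-box is higher in the centre in CpG-poor members (10.9% against 6.41%) and not in CpG-rich members (4.39% against 4.90%), where the ETS site is (7.504% against 2.002%).

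**Figure D4:**
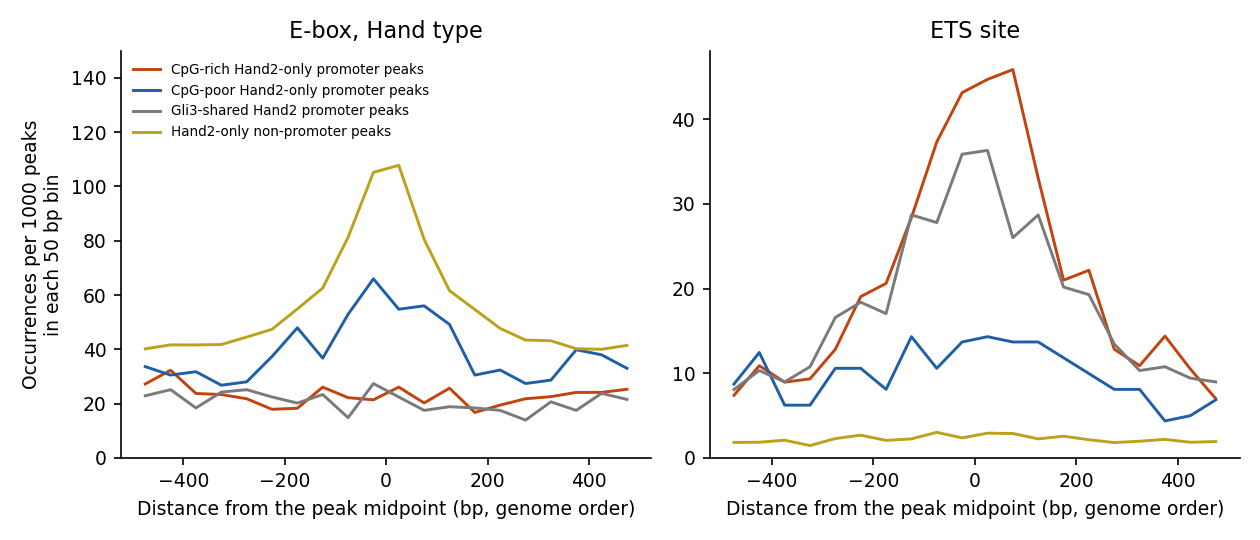
Occurrences per 1000 peaks in 50 bp bins against distance from the peak midpoint (bp, genome order) for the Hand-type E-box CAGATG (left) and the ETS site CCGGAAG (right) in 4 classes of Hand2 peaks. For CAGATG the CpG-poor members rise to 65.96 at the midpoint while the bins of the CpG-rich members range from 16.7 to 32.3. The non-promoter peaks rise higher, to 107.8.

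At the level of genes, 4337 of 21951 protein-coding genes had a Hand2-only promoter peak, which is 19.8% of them, and 2374 (10.8%) had a Gli3-shared Hand2 promoter peak. Both were present at 124 genes. A single member served 4070 genes, 262 genes had 2 and 5 genes had 3. The last were *Bcl9l*, a coactivator of beta-catenin, *Mpped2*, *Necap1*, *Tmed7* and *Tmem19*, and their peaks spanned from 944 bp upstream to 967 bp downstream at *Bcl9l* and from 933 bp upstream to 142 bp downstream at *Mpped2*. The X chromosome had the lowest share of genes with a member among chromosomes other than Y and the mitochondrial genome, at 9.49%, and the autosomes ran from 16.6% to 23.5%.

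Genes with a member had promoters unlike those of the 14021 genes with no peak of any list within 1 kb. In the window from 250 bp before to 50 bp after the 5' end, 62.8% of member genes and 25.9% of genes without a peak were CpG-rich (difference 36.9 points, 35.3 to 38.5), and 75.3% of genes with a Gli3-shared peak and no member. TATAAA 40 to 20 bp before the start was in 0.899% of member genes and 3.28% of genes without a peak (Fisher's exact test, adjusted p = 4.10e-20), a difference found among CpG-poor promoters (1.18% against 4.13%, adjusted p = 2.34e-10 by Fisher's exact test) and not passing among CpG-rich ones (0.735% against 0.854%, adjusted p = 0.712 by Fisher's exact test). CAGATG was less frequent in promoters of member genes (13.7%) than in those without a peak (17.0%, Fisher's exact test, adjusted p = 4.98e-07). This order turned with promoter class: in CpG-rich promoters it was 10.8% against 8.10% (Fisher's exact test, adjusted p = 4.77e-04), and in CpG-poor promoters 18.6% against 20.1%, which did not pass (adjusted p = 0.197 by Fisher's exact test). For TATAAA and CAGATG the difference between promoter classes itself was not tested. CAGCTG was more frequent with a member in both classes, at 15.5% against 12.7% and 20.2% against 17.2% (Fisher's exact test, adjusted p = 0.00343 and 0.00693).

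Genes with a member more often had a further Hand2 peak in their neighbourhood, a measure the rule did not use. A Hand2 peak 1 to 50 kb from the 5' end was present at 86.0% of member genes and 68.2% of genes without a promoter peak (difference 17.7 points, 16.4 to 19.0, Fisher's exact test, adjusted p = 1.68e-125). The difference was 21.7 points at CpG-poor promoters (84.4% against 62.7%, Fisher's exact test, adjusted p = 6.04e-72) and 2.65 points at CpG-rich ones (86.9% against 84.2%, Fisher's exact test, adjusted p = 0.00583), and these 2 differences were not tested against each other. Genes with a Gli3-shared peak and no member stood at 86.5%, a difference of -0.575 points for member genes minus these, with an interval of -2.29 to 1.21. Median numbers of such peaks were 2 per member gene and 1 per gene without.

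Genes of mandibular patterning carried members at 13 of 41 genes (31.7%, against 19.8% of all genes), with no test, and 21 had no Hand2 promoter peak. The homeobox genes of the first arch included *Msx1*, whose peak lay 11 bp from the start (chr5:37824287-37824900), *Msx2* (264 bp), *Dlx2* (207 bp), *Dlx6* (536 bp) and *Nkx2-3* (63 bp). Endothelin signalling, which sets ventral jaw identity, was represented by its ligand *Edn1* (87 bp upstream, chr13:42301220-42301557) and its receptor *Ednra* (211 bp downstream, chr8:77723908-77724597), both in CpG-poor peaks. *Osr1* (24 bp) and *Osr2* (86 bp), zinc finger TFs of the palate and tongue region, the forkhead genes *Foxf1* (73 bp) and *Foxf2* (871 bp), *Eya1* (277 bp) and *Tbx3* (942 bp) completed the list. Of these 13 peaks 10 were CpG-rich, and 1, at *Eya1*, held CAGATG. *Dlx6* and *Tbx3* had a Gli3-shared promoter peak as well.

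*Hand2* itself had no promoter peak, and the nearest entry of its list lay 3433 bp from its 5' end. Among 20 genes of Hand2 and other basic helix-loop-helix proteins 4 had a member (20.0%, close to the 19.8% of all genes): *Twist2*, with peaks 225 bp upstream and 406 bp downstream, *Hand1* (842 bp upstream), and the Notch targets *Hey1* (136 bp) and *Hey2* (84 bp). All 5 peaks were CpG-rich and none held CAGATG. A Gli3-shared promoter peak was found at 6 of these 20 genes (30%, against 10.8% of all genes). Of 21 Hedgehog pathway genes 5 had a member (23.8%, against 19.8% of all genes) and 7 a Gli3-shared promoter peak (33.3%, against 10.8%). The members were at *Disp1* (21 bp) and *Hhat* (477 bp), needed to release and to lipidate the ligand, *Cdon* (363 bp), a co-receptor, *Hhip* (205 bp), a decoy receptor, and *Sufu*, a cytoplasmic inhibitor of Gli proteins, with peaks at 41 bp and 954 bp. The peak at *Hhip* held CAGATG. *Ptch1*, the Hedgehog receptor and a standard target, had a Gli3-shared peak 28 bp from its start and no member. *Plagl1*, a zinc finger gene, had a member 24 bp from its 5' end (chr10:13060308-13060652), while *Foxd1*, *Myh6* and *Maf* had no promoter peak in the Hand2 list used here, with the nearest Hand2 peak at 6334, 18410 and 1798 bp. The study reports regions bound by both Gli3 and Hand2 at the loci of *Plagl1*, *Foxd1*, *Myh6* and *Maf*. It names the *Foxd1* regions PP1 and PP2 promoter proximal and tested both in gel-shift and luciferase assays. The nearest Hand2 peak of the list used here lay 6334 bp from the *Foxd1* 5' end, which differs from that placement. The study looked for potential regulatory regions in pooled replicates, whereas every entry of the Hand2 list used here names both replicates. The cause of the difference was not tested.

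Among genes of the skeletal matrix, 17 of 44 collagen genes had a member (38.6%) and 1 a Gli3-shared promoter peak (2.27%), where 19.8% and 10.8% of all genes did. Of 24 cartilage and bone genes 9 had a member (37.5%) and 2 a Gli3-shared peak (8.33%). No list was tested. The members closest to the start were at *Col1a2*, a chain of type I collagen of bone (25 bp, with 1 CAGATG), *Col5a2* (35 bp), *Col16a1* (63 bp) and *Col27a1* (132 bp), and, in the other list, at *Sp7*, an osteoblast TF (164 bp), *Col11a2* of cartilage (170 bp) and *Sox5* (212 bp), a partner of Sox9. *Sox9* itself, the chondrocyte TF, had one 587 bp upstream. Of 11 peaks at cartilage and bone genes 2 were CpG-rich, and of 19 at collagens 7, against 61.5% of members. The collagen and bone lists share genes.

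Of 28 Bmp and Tgf-beta genes 11 had a member (39.3%, against 19.8% of all genes) and 10 a Gli3-shared peak (35.7%, against 10.8% of all genes), and of 30 Wnt genes 9 and 8. Ligands *Bmp5* and *Bmp7* (3 bp each), the receptor *Acvr2a* (5 bp) and the antagonist *Chrd* (41 bp) were closest in the first list. In the Wnt list these were the agonist *Rspo2* (13 bp), the antagonist *Sfrp2* (39 bp), the receptor *Fzd1* (156 bp) and the nuclear effector *Lef1* (202 bp). Some gene families stood near the 19.8% of all genes: 11 of 44 forkhead genes had a member, *Foxn2*, *Foxf1*, *Foxo3* and *Foxd2* closest, 3 of 13 T-box genes (23.1%) and 3 of 19 Sox genes (15.8%). Of 39 Hox genes 1 had a member, *Hoxd13* at 570 bp.

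The lists of housekeeping genes, which were not tested, are read against the 19.8% of all genes with a member and the 10.8% with a Gli3-shared peak. Respiratory chain subunits had a member at 27 of 94 genes (28.7%) and mitochondrial ribosomal proteins at 23 of 77 (29.9%), with midpoints within 3 bp of the start at *Ndufa6*, *Ndufv1* and *Sdha* and 5 bp from it at *Mrps18a*. Gli3-shared peaks were found at 9 (9.57%) and 13 (16.9%) of these genes. Members were fewer than genes with a Gli3-shared peak among splicing factors, with 10 of 64 (15.6%) against 34 (53.1%), cyclins, MCM and CDK genes, with 5 of 30 against 12, cytosolic ribosomal proteins, with 8 of 89 against 18, ubiquitin ligases and proteasome genes, with 9 of 78 against 20, and replication-dependent histones, with 9 of 67 against 59 (88.1%). Chromatin modifiers had a member at 25 of 96 genes (26.0%) and a Gli3-shared peak at 29 (30.2%). *Zfp* genes, KRAB and other zinc finger proteins, had a member at 117 of 365 (32.1%) and a Gli3-shared peak at 72 (19.7%).

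Lists of genes of other cell types and tissues are short, and their counts are given beside the 19.8% of all genes, with no test. Skeletal muscle genes had 2 of 25, *Des* (177 bp) and *Myog* (194 bp), epithelium 1 of 16, *Epcam* (189 bp), blood and endothelium 2 of 18, *Kdr* (216 bp) and *Erg* (972 bp), liver 1 of 14, *Fgb* (929 bp), and sympathetic and heart genes 3 of 20, *Tnnt2* (186 bp), *Nkx2-5* (377 bp) and *Gata2* (944 bp). Neuronal genes stood at 4 of 16, with *Pou4f1* (17 bp) and *Elavl4* (114 bp) closest. Keratins had 0 of 53, vomeronasal receptors 2 of 329 and olfactory receptors 8 of 1135 (0.705%). A peak is not expression and names no cell type.

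**Figure D5:**
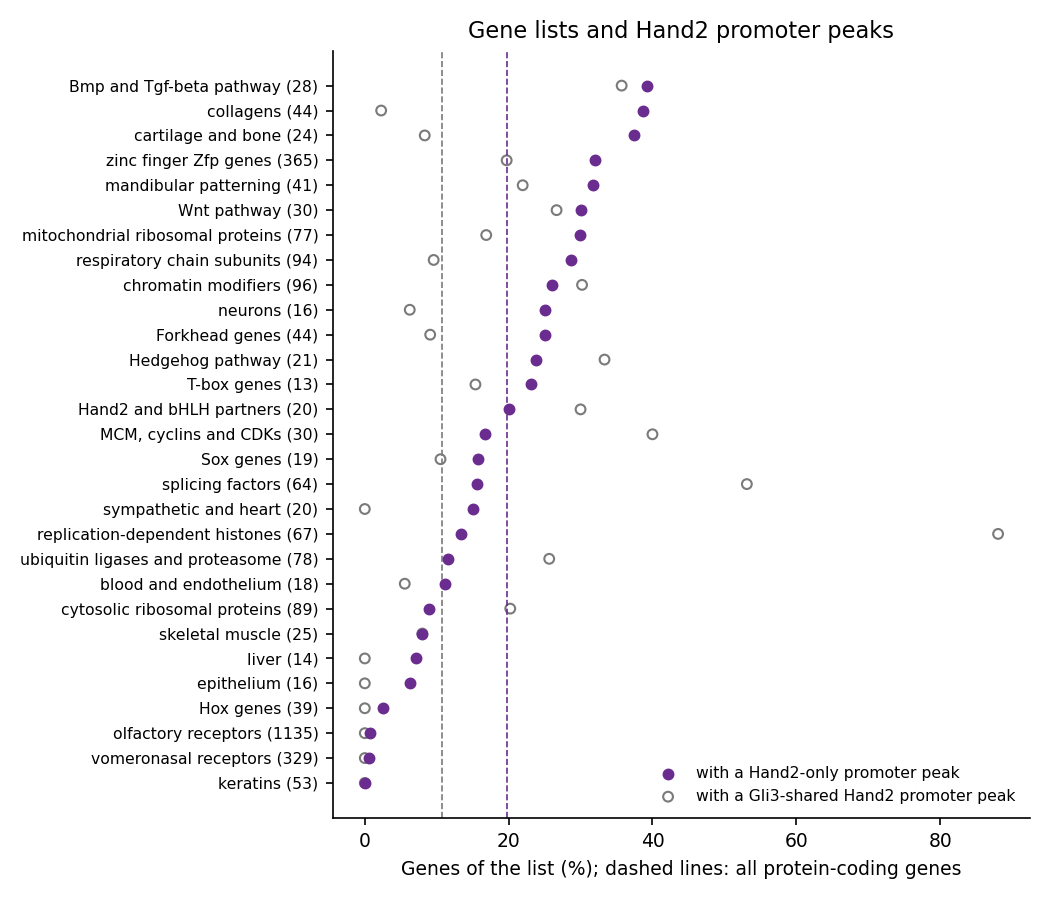
Share of the genes of each list (%, list size in brackets) with a Hand2-only promoter peak (filled) and with a Gli3-shared Hand2 promoter peak (open), with dashed lines at the 19.8% and 10.8% of all protein-coding genes. Collagens show 38.6% and 2.27%, and replication-dependent histones 13.4% and 88.1%.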

How the data were processed

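ChIP-seq with anti-FLAG M2 antibody was performed on tissue fixed in 1% formaldehyde for 20 min. The authors mapped reads of 75 bp to mm10 with bwa, called peaks and joined both replicates with bedtools (versions and the caller of these lists not given in the sources used here; HOMER also stands in the submitters' notes). The deposited lists give peak positions in bp, without score, signal or read count, so total counts per sample were not used and peaks could not be ranked by strength. The methods describe a mock ChIP on wild-type tissue, which was not analysed here.

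Peak classes, distances to GENCODE vM21 protein-coding genes (release M 21) and motif counts (exact letters, both strands, 24 motifs) were computed from these positions and the GRCm38 sequence with Python 3.11.15, numpy 2.4.6, scipy 1.17.1, statsmodels 0.14.6, pysam 0.24.0 and matplotlib 3.10.9. Since each list joins its replicates, they were compared only by the number of sub-peaks. Shares were compared by two-sided Fisher's exact test with Newcombe intervals, and windows of one peak by the exact McNemar test, at an adjusted p of 0.05. Tests were tested on simulated data. Members, motifs and the 29 gene lists were chosen with earlier results of these data known. Named genes are all members of the Hand2, mandibular and Hedgehog lists, the 4 closest to the start in each other list, genes with 3 members, the widest, the richest in CAGATG, those at the limits, and genes the study names. Other genes, such as *Dkk2*, *Hdac11*, *Sgta*, *Zfp28*, *Zfp787*, *Zfp931*, *Zfp943*, *Zfp970*, *Foxd3* and the families in the closing section, were chosen after their values were seen. Alternatives were other promoter limits, transcripts, Gli3 lists, widths, windows, GC strata and chromosomes. The splits by CpG class and the removal of masked or repeated members were added after seeing the data.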

Additional observations from a re-analysis of the deposited data

How the results depend on the processing

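The threshold in this section is an unadjusted p of 0.05, unlike the adjusted p used elsewhere. Leaving out the settings that concern replicates, 95 of 104 values of the 9 tested results under an alternative kept their direction and side of this threshold. Keeping only peaks of the median width (451 bp) or wider left 2240 members. The difference in CAGATG between centre and flanks, 1.41 points over all members, was 2.97 with a promoter limit of 2 kb, 2.29 with the starts of any protein-coding transcript and 4.48 in CpG-poor members, all then past the threshold on both sides, and -0.670 in wide peaks and -0.505 in CpG-rich members. The difference in CAGATG between promoters with and without a member, -3.31 points, became an odds ratio of 0.977 over 5 GC strata by the Mantel-Haenszel method, past no threshold, -1.56 in CpG-poor and 2.74 in CpG-rich promoters. That of CAGATG with TAATTA, -0.3998 points, became an odds ratio of 0.413 over GC strata, past no threshold. The cause of these changes was not tested. The lists name both replicates in every entry, so leaving out either Hand2 replicate changed no value, 4179 members in each case, and says nothing about stability. No paired analysis was possible because each list joins its 2 replicates. Peak height and depth are unknown, so weak and strong members could not be told apart.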

Other observations

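Some members are copies of each other. A run of 50 bases or more was identical between members in 27 families, which held 120 members (2.87%), 78 of them CpG-poor, and 95 of the 120 lay at *Zfp* genes or at predicted genes named *Gm* or *Rik*. The largest family held 26 members, at *Zfp931*, *Zfp965*, *Zfp970*, *Zfp971*, *Zfp973* and predicted genes, and none of the 26 held CAGATG in the central 200 bp. A family of 13, all CpG-rich, lay at *Ifnz* and predicted genes. Such entries are uncertain as single sites where a shared run is at least as long as the 75 bp reads. A read within such a run fits several places. The full lengths of the runs are not given here. Without these members the difference in CAGATG was -17.6 points from non-promoter and 5.24 points from Gli3-shared promoter peaks.

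The olfactory receptor genes, a family read in the nose and silent in most other tissues, had 8 members among 1135 genes. All 8 peaks were CpG-poor and 7 of them held CAGATG in the central 200 bp, against 19.9% of CpG-poor members. They included *Olfr957*, with 2 copies 96 bp from the start, *Olfr578* (17 bp), *Olfr685* (48 bp) and *Olfr156* (97 bp), and the exception was *Olfr692* (522 bp). The family was looked at after its values were seen and was not tested.

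Of 582 occurrences in the central 200 bp of members, 266 (45.7%, 95% interval 41.6 to 49.9) read CAGATG on the strand of the gene (two-sided exact binomial test, unadjusted p = 0.0422). Occurrences within a peak are not independent.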
